A study of Mus musculus with 64 samples.

Results

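The nuclear genes of respiratory complex I were examined in early distal convoluted tubules (DCT) of mouse kidney, with and without furosemide in the diet. The genes were chosen by name and annotated type: protein-coding genes whose symbol starts with Ndufa, Ndufab, Ndufb, Ndufc, Ndufs or Ndufv. Ndufaf assembly factors, pseudogenes and symbols ending in -ps were left out. Among those left out was Ndufb1-ps, annotated as a bidirectional promoter long noncoding RNA, with a mean of 8462.9 counts per library. The rule gave 38 of the 54331 genes in the deposited table, and all 38 had enough counts to be tested. By present knowledge 36 of them encode complex I subunits. The other 2 do not: Ndufa4 encodes a subunit of complex IV (cytochrome c oxidase), and Ndufa4l2 is its paralog. Both keep their old family name and are described apart.

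The mice carried the transgene C57BL/6-Tg (Pvalb-tdTomato)15Gfng/J, a red reporter under the control of the parvalbumin gene, which marks the early DCT, and this holds for controls and treated mice alike. All mice ate control diet first. Treated mice then ate furosemide in their diet for 12, 24, 48 or 96 h, and mice on control diet were taken at each of those times. Furosemide is a loop diuretic: it blocks the cotransporter of the preceding nephron segment, the thick ascending limb, so that more salt reaches the DCT. The design asks how the DCT transcriptome responds over time. With 2 sexes, 2 diets and 4 times there were 16 groups of 4 libraries each, 64 in all. Tubules were microdissected from 9 to 11 am. Neither ages nor the amount of drug in the diet could be read from the labels. The sources give each library a replicate number without calling it a separate mouse, so p-values measure only the spread between libraries, which may partly be technical.

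Complex I (NADH:ubiquinone oxidoreductase) is the entry point of the respiratory chain: it passes electrons from NADH to ubiquinone and pumps protons across the inner mitochondrial membrane. It is L-shaped. The matrix arm carries the flavin and the iron-sulfur clusters, and the membrane arm carries the proton channels. Core subunits of the matrix arm and all accessory subunits are encoded in the nucleus, and core subunits of the membrane arm in mitochondrial DNA. DCT cells are densely packed with mitochondria, which fuel the sodium pump of their basolateral membrane. In the order used here, 7 genes encode the core of the matrix arm, 10 its accessory subunits, 9 the accessory subunits of the proximal membrane arm and 10 those of the distal membrane arm.

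Promoters were read for 33 of the 38 genes from the RefSeq promoter table for GRCm38.p6, whose windows run from 250 bases before to 50 after the start, and the remaining 5, with Ndufa2, Ndufa4l2, Ndufb9 and Ndufs1 among them, had no entry. The 4 stretches below are each the 150 bases before the start of a gene in that table, and are shown because nuclear respiratory factor 1 (NRF1) and GA-binding protein, an ETS-family factor, are textbook regulators of respiratory chain genes. Capitals mark matches to an NRF1-like motif (GCGCA, any base, then GCGC) on either strand in Ndufa8 (chr2:36049339-36049488), Ndufs6 (chr13:73328483-73328632) and Ndufb4 (chr16:37654369-37654518), and to an ETS motif (CCGGAAG) in Ndufs3 (chr2:90904722-90904871). All 4 genes lie on the minus strand, and each sequence reads 5′ to 3′ along it. In GENCODE release M21, used below for gene positions, all 4 genes reach further upstream. Part of each stretch, with the marked matches, lies within the gene by that annotation.
Ndufa8: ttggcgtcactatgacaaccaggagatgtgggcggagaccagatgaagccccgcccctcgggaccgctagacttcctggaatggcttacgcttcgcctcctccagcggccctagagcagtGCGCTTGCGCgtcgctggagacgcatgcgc
Ndufs6: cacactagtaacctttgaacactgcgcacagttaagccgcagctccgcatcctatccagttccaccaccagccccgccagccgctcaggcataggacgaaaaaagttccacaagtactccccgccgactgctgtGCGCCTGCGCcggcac
Ndufb4: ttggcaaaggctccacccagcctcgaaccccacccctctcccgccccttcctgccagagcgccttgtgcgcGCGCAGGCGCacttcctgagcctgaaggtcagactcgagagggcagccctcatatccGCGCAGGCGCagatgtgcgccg
Ndufs3: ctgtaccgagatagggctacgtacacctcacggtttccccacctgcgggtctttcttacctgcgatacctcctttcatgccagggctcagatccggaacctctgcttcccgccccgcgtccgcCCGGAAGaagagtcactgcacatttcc

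On both strands of the whole 300-base window, the NRF1-like motif was found in 7 of the 33 promoters (21.2%), against 5.19% of the 27025 genes in the table. The 7 were Ndufa5, Ndufa6, Ndufa8, Ndufa11, Ndufb4, Ndufs5 and Ndufs6. A YY1-like motif (AAGATGG) was also found in 7 (21.2%, against 7.28% of all), and in 0 when the search was limited to the 250 bases before the start (5.18% of all), so each of these matches lay past the start. The other motifs stood closer to the share among all genes: the ETS motif in 4 (12.1% against 9.93%), an SP1-family motif (GGGCGG) in 15 (45.5% against 38.2%) and a motif of estrogen-related receptors (AAGGTCA) in 3 (9.09% against 5.38%). Matches of different motifs were counted separately and may overlap. A match is a run of letters and no evidence of binding.

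The libraries held 12.7 to 41.1 M counts (M, 1000000), with a median of 32.4 M in the 16 libraries of 96 h and of 19.2 M in the 48 earlier ones. The salt cotransporter Slc12a3 of the DCT lay between 2789 and 16695 counts per 1000000 (CPM) in every library, at a median of 6515 CPM. Early DCT markers, Slc12a3 among them, summed to a median of 10108 CPM, and markers of the connecting tubule and late DCT to 1696 CPM (299 to 10729). Medians were lower for Slc12a1 (thick ascending limb, 119 CPM), Slc34a1 (proximal tubule, 8.26 CPM) and Aqp2 (principal cells, 1.73 CPM). Umod, made mostly by the thick ascending limb, reached a median of 4596 CPM. How far the tubules were early DCT alone was not tested. In bulk tubules, fewer cells of a type and less RNA per cell cannot be told apart. In 3 libraries the median Spearman correlation with the other libraries of their group was below 0.75. These were replicate 3 of the female controls at 24 h (0.448), replicate 4 of the female controls at 48 h (0.703) and replicate 4 of the males on furosemide at 12 h (0.722). The next value was 0.812. Results are therefore given with all 64 libraries and without these 3, which are called the 3 libraries of low similarity. The mitochondrial tRNA synthetase gene Lars2 also set libraries apart, its median share of all counts being 36128 CPM at 12 to 48 h and 10603 CPM at 96 h, where 5 of the 8 furosemide libraries lay above every control.

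Per length of transcript, the complex I genes spanned more than an order of magnitude in the DCT. Ndufa1, a small single-helix subunit of the proximal membrane arm, stood highest with a median of 1866 CPM per kb of transcript over 64 libraries (interquartile range 1519 to 2263), followed by Ndufb9 of the distal arm with 1665 and the complex IV gene Ndufa4 with 1560. These 3, and Ndufb8 and Ndufa3 next to them, exchanged places from library to library, and their interquartile ranges overlapped. The lowest complex I gene was Ndufs1, the largest core subunit, at 70.7 CPM per kb (56.5 to 85.5), below Ndufs4 at 103. The median over the 7 core genes was 241 CPM per kb, against 497 for accessory matrix subunits, 602 for the proximal and 620 for the distal membrane arm. Ndufa4l2 stood at 1.65 CPM per kb, last in every library. These values use the longest principal transcript of each gene. With the shortest, Ndufb2 moved from 163 to 1570, Ndufc1 from 602 to 2387, Ndufab1 from 182 to 448 CPM per kb, and Ndufa4 from 1560 to 2106. Ndufc1 and Ndufa4 then stood above Ndufa1, so the first place and the places of these 4 genes depend on which transcript the tubule uses.

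**Figure D1:**
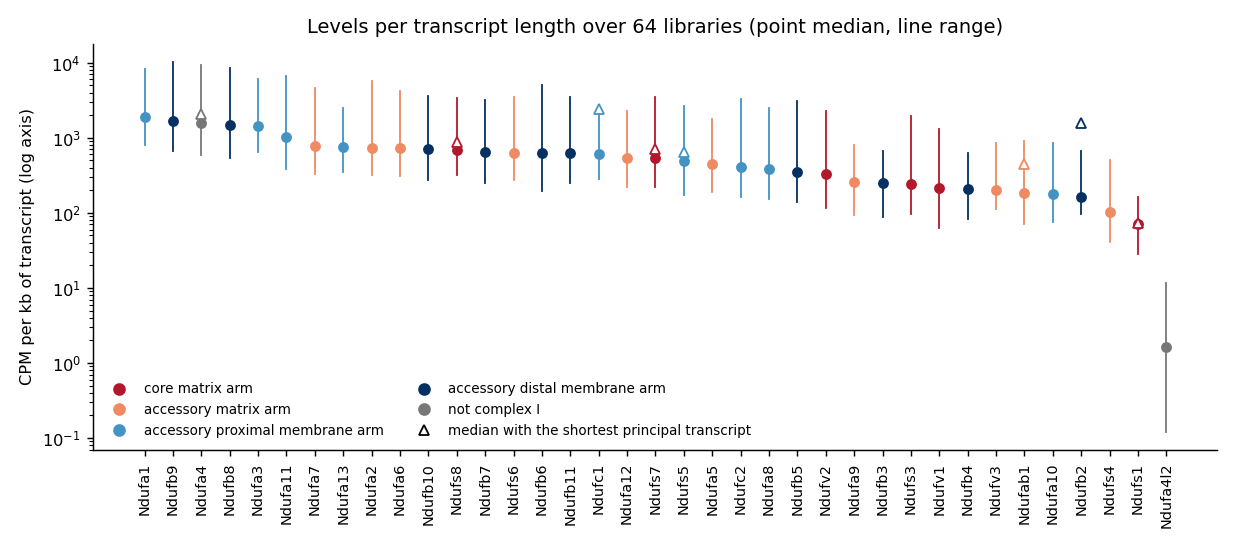
Level of 37 of the 38 genes per kb of transcript (log axis), as the median (point) and range (line) over 64 libraries, with triangles for the shortest principal transcript where lengths differ. Most genes lie between 100 and 2000 CPM per kb, and Ndufa4l2 lies far below the rest at 1.65.

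The 37 genes other than Ndufa4l2 varied together from library to library. Over the 666 pairs of these genes, Pearson's correlation of log2 CPM across the 64 libraries had a median of 0.89 and ranged from 0.46 to 0.99, and the median was 0.87 without the 3 libraries of low similarity. All pairs share their libraries, depths and scaling, so these are descriptions. Ndufb5, an accessory subunit of the distal arm, was most like the others (median 0.94), and Ndufs1 (0.68) and Ndufb3 (0.74) were least like them with all libraries. Without the 3 the least alike were Ndufv3 (0.73) and Ndufs1 (0.75). Ndufa4l2 had a median of 0.40 with the other genes. A single level was therefore formed as the mean log2 CPM of the 38 genes in each library. It ran from 7.34 in male control 48 h replicate 3, where 28 of the 38 genes had their lowest value, to 10.93 in female control 24 h replicate 3, where 36 had their highest. The summed early DCT markers were also lowest of all in the first of these (4622 CPM). In the second they reached 16465 CPM, the mitochondrial share of counts was the lowest of all at 2.4%, and the markers of the connecting tubule and late DCT summed to 10729 CPM, against a median of 1696 CPM over all libraries. What these measures contribute to its complex I level was not tested.

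**Figure D2:**
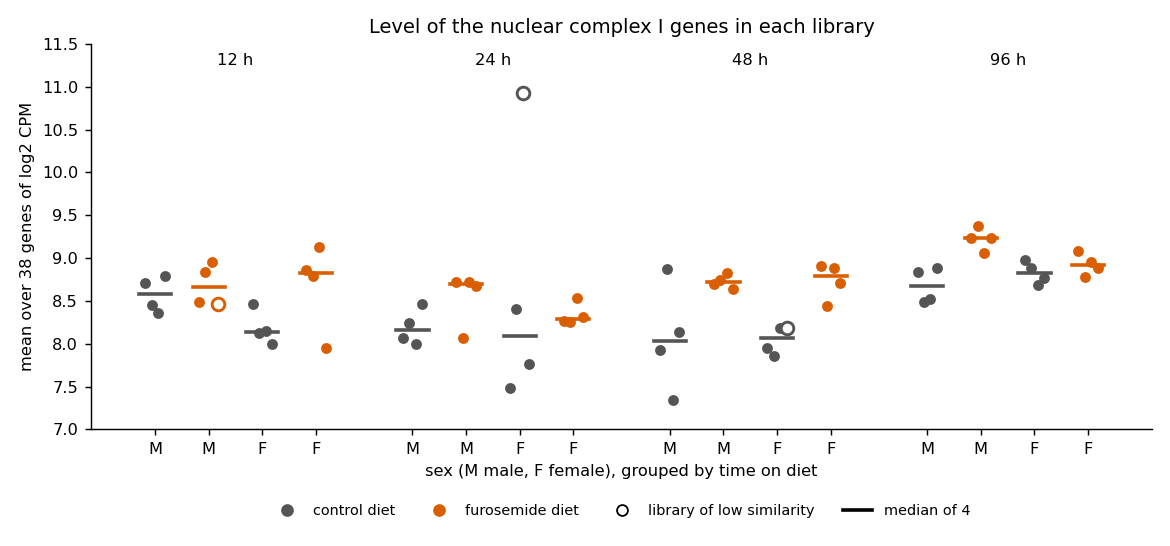
Mean log2 CPM of the 38 genes in each library, by sex, diet and time, with a line at the median of 4 and open circles for the 3 libraries of low similarity. At 48 h the 8 furosemide libraries lie between 8.44 and 8.91 while 7 of the 8 controls lie at or below 8.18, and 1 control of 24 h stands alone at 10.93.

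The level differed most between the diets at 48 h. With 8 libraries per diet, it was 7.34, 8.04 and 8.87 (lowest, median and highest) in controls and 8.44, 8.73 and 8.91 with furosemide. The 1 control inside the furosemide range was male control 48 h replicate 2. At 12 h the controls had 8.0, 8.40 and 8.79 and the furosemide libraries 7.95, 8.82 and 9.13, and the diets overlapped over most of that range. At 24 h the controls had 7.48, 8.16 and 10.93 and the furosemide libraries 8.07, 8.42 and 8.72, so that both the lowest and the highest library were controls. At 96 h the controls had 8.49, 8.81 and 8.98 and the furosemide libraries 8.78, 9.07 and 9.37, and the highest 3 were males on furosemide.

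After 48 h of furosemide, all 38 genes had a positive log2 fold change in the fit of all 64 libraries, with a median of 0.64 and a range of 0.05 to 0.94. In edgeR's quasi-likelihood test, with p-values adjusted by Benjamini-Hochberg over 41507 genes, 0 of the 38 were called at an adjusted p under 0.05, and the smallest adjusted p was 0.242. At an unadjusted p under 0.05, 32 of the 38 were higher. Among all genes tested, 0.00241% were called, 4.53% were higher at an unadjusted p under 0.05 and 42.9% had a positive fold change. DESeq2 called 1 of the 38 higher (35 of all 41507 genes), and limma voom called 0 (2 of all). Voom with weights for the quality of each library called 36 higher (767 of all). The 885 genes of comparably high level (mean of at least 7 log2 CPM) also leaned higher, with a median of 0.40 and 34.5% higher at an unadjusted p under 0.05.

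Without the 3 libraries of low similarity, all 38 genes had a positive fold change at 48 h. Of them 34 were called higher, against 2.73% of all genes tested and 301 of the 885 genes of high level. The median was 0.73 and adjusted p values of the called genes began at 0.00917 by edgeR's quasi-likelihood test. The standard errors (SE) of the 37 genes other than Ndufa4l2 lay between 0.207 and 0.302 with all libraries and between 0.141 and 0.217 without the 3, and that of Ndufs1 did not narrow. Leaving out only female control 24 h replicate 3 and estimating the spread anew gave 12 called (0.277% of all genes called higher), although that library is in neither group compared at 48 h. Leaving out only female control 48 h replicate 4 gave 0 (0.00241%), as did leaving out only male furosemide 12 h replicate 4 (0.00241%). All groups share 1 estimate of the spread and 1 scaling, and which of these carried the change in calls was not tested.

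The 7 core subunits differed by similar amounts at 48 h. Ndufs1 (chr1:63143596-63176833 on GRCm38, minus strand), which passes electrons along its iron-sulfur clusters, lay at 76.1, 132 and 208 CPM in controls (lowest, median and highest of 8) and at 160, 225 and 292 CPM with furosemide. Its ranges overlapped, and all 8 furosemide libraries lay above the control median. The log2 fold change was 0.68 (SE 0.207, adjusted p = 0.288 by edgeR) with all libraries and 0.73 (SE 0.213, adjusted p = 0.0443) without the 3. Ndufs7, the subunit next to the ubiquinone site, lay at 219, 351 and 648 CPM in controls and at 523, 584 and 690 CPM with furosemide. Its fold change was 0.60 (SE 0.270, adjusted p = 0.473) with all libraries and 0.76 (SE 0.172, adjusted p = 0.0142) without the 3, again with 8 of 8 above the control median. Ndufv1, which binds NADH and the flavin, had 105, 241 and 384 CPM in controls and 317, 360 and 410 CPM with furosemide, with fold changes of 0.56 (SE 0.281) and 0.69 (SE 0.196, adjusted p = 0.0402). Other core genes gave 0.61 for Ndufs3 (SE 0.295), 0.62 for Ndufs8 (SE 0.253) and 0.67 for Ndufv2 (SE 0.284) with all libraries, and 0.71 to 0.76 without the 3. All 7 core genes were among the 34 called.

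Of the accessory matrix subunits, 8 of 10 were called at 48 h without the 3 libraries, with a median of 0.69 (0.61 with all libraries). Ndufab1, the mitochondrial acyl carrier protein, led them. Over all 8 libraries per diet it lay at 250, 398 and 750 CPM in controls and at 644, 730 and 913 CPM with furosemide. With all libraries it was not called, and without the 3 it changed by 0.86 (SE 0.183, adjusted p = 0.0109 by edgeR). It was joined by Ndufa6, an accessory subunit that docks that carrier protein (0.77, SE 0.192, adjusted p = 0.0220), and Ndufs4, whose loss causes a Leigh-like disease (0.75, SE 0.196, adjusted p = 0.0268). The 2 not called were Ndufa2 (0.57, adjusted p = 0.0509) and Ndufa7 (0.52, adjusted p = 0.0785), named because they are the exceptions.

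On the membrane arm, 8 of 9 proximal and 10 of 10 distal accessory subunits were called at 48 h without the 3 libraries, with medians of 0.71 and 0.79. Ndufb3, a small distal subunit (chr1:58586384-58595964, plus strand), had the largest change of the 38 genes and the smallest p with all libraries. It lay at 66.6, 121 and 210 CPM in controls and at 189, 211 and 405 CPM with furosemide, with the log2 fold change at 0.94 (SE 0.225, adjusted p = 0.242 by edgeR) and, without the 3, at 1.02 (SE 0.217, adjusted p = 0.0109). Control and furosemide ranges overlapped only between 189 and 210 CPM. Ndufb10, a distal subunit with a CHCH fold facing the intermembrane space, had the smallest p without the 3 libraries. Over all 8 libraries per diet its values were 200, 345 and 622 CPM in controls and 556, 655 and 761 CPM with furosemide. With all libraries it was not called, and without the 3 it changed by 0.91 (SE 0.185, adjusted p = 0.00917 by edgeR). Ndufc2 (0.88, SE 0.180), Ndufa11 (0.87, SE 0.185) and Ndufa8 (0.85, SE 0.185) followed on the proximal arm, and Ndufb4 (0.80, SE 0.179) on the distal arm. Ndufa1 was the 1 proximal subunit not called (0.42, SE 0.177, adjusted p = 0.179). Ndufb2 showed the largest difference between the fits, with 0.33 (SE 0.226) from all libraries and 0.59 (SE 0.141) without the 3.

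Of the 2 genes outside complex I, 1 was called at 48 h without the 3 libraries. Ndufa4, of complex IV, lay at 361, 633 and 1276 CPM in controls and at 887, 1042 and 1157 CPM with furosemide. Its log2 fold change was 0.59 (SE 0.274) with all libraries and 0.66 (SE 0.192, adjusted p = 0.0430 by edgeR) without the 3. Ndufa4l2 lay at 0.258, 1.6 and 4.07 CPM in controls and at 0.339, 1.14 and 4.75 CPM with furosemide, and was not called (0.05, SE 0.550, and 0.18, SE 0.519, without the 3). At this level a library holds few counts of it.

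**Figure D3:**
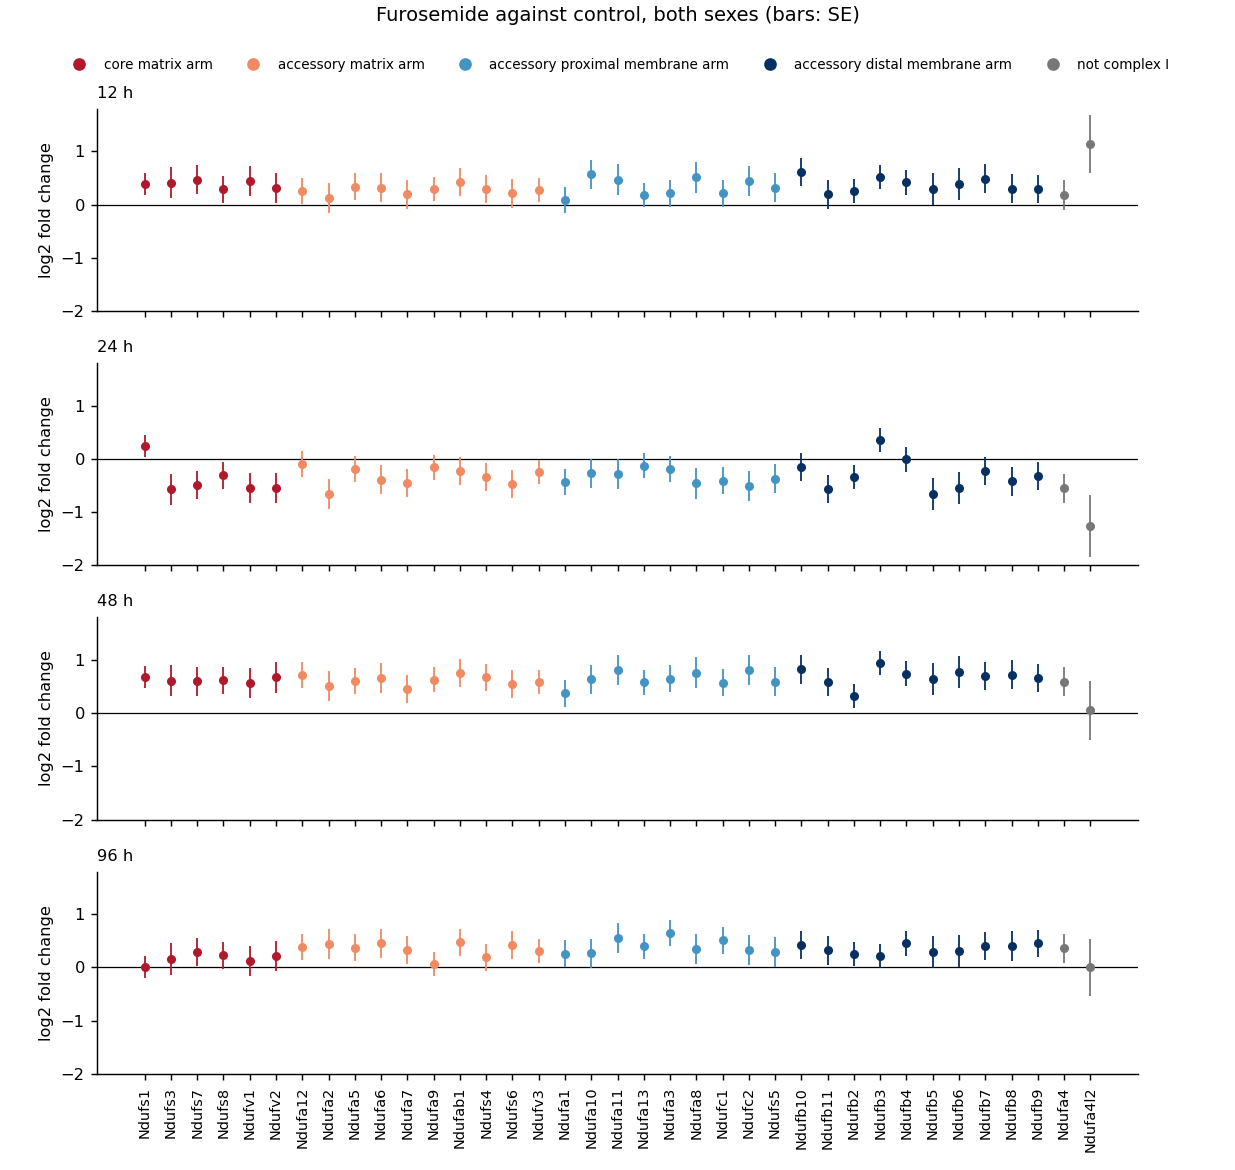
Log2 fold change of 37 of the 38 genes, furosemide against control in both sexes, at each time from all 64 libraries, coloured by place in the complex, with bars of 1 SE. All 37 points lie above 0 at 12 h and 48 h, 2 at 24 h and 35 at 96 h, and none of these differences was called.

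Several measures of the libraries stood beside the 48 h difference. All 6 immune markers had a positive fold change (median 0.52), and their sum was 93.5, 161 and 354 CPM in controls (lowest, median and highest) against 95, 222 and 612 CPM with furosemide. All 5 podocyte markers were negative (median −0.88), with sums of 25.4, 41.7 and 662 CPM against 42.9, 46.2 and 96.2 CPM, and all 5 erythroid markers were negative (median −5.24), with sums of 0.472, 1.63 and 313 CPM against 0.264, 1.16 and 34.6 CPM. The 6 early DCT markers were split, with 3 positive and a median of 0.02, and their sum was 4622, 8883 and 24807 CPM against 9522, 10987 and 13465 CPM. Similarity within the group was also lower in the controls (median 0.852) than with furosemide (median 0.925). The part of these measures in the complex I difference was not tested.

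After 12 h of furosemide, all 38 genes again had positive fold changes, with a median of 0.32, and 0 were called by edgeR's quasi-likelihood test (smallest Benjamini-Hochberg adjusted p = 0.478). DESeq2 and voom, with or without weights, also called 0. The 5 genes higher at an unadjusted p under 0.05 compare with 5.11% of all genes, and 50% of all genes had a positive fold change. Among the 885 genes of high level, 14.6% were higher at that threshold, 82.6% were positive and the median was 0.27. Of all genes 0% were called, and without the 3 libraries 0.00482% were called higher, with 0 complex I genes among them and a median of 0.38. Ndufb3 had the smallest p: it lay at 131, 157 and 203 CPM in controls and at 97.2, 223 and 503 CPM with furosemide, a log2 fold change of 0.52 (SE 0.224). The lowest and the highest library were both on furosemide. Ndufb10 stood at 0.61 (SE 0.265), and at 0.70 (SE 0.182) without the 3, with 7 of 8 furosemide libraries above the control median. Core genes ran from 0.29 for Ndufs8 (SE 0.252) through 0.31 for Ndufv2 (SE 0.283), 0.39 for Ndufs1 (SE 0.206), 0.41 for Ndufs3 (SE 0.294) and 0.45 for Ndufv1 (SE 0.281) to 0.47 for Ndufs7 (SE 0.270). Ndufa4 stood at 0.18 (SE 0.273) and Ndufa4l2 at 1.14 (SE 0.551), the latter at 0.55 without the 3 libraries. At this time 5 of 5 podocyte and 4 of 4 principal cell markers had negative fold changes, with highest sums of 2858 and 194 CPM in controls against 259 and 15.4 CPM with furosemide, and their part was not tested.

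At 24 h the sign of the difference turned with 1 library and with the method. With all 64 libraries, 36 of the 38 genes had a negative fold change (median −0.38), and the 2 positive ones were Ndufs1 (0.25, SE 0.206) and Ndufb3 (0.35, SE 0.224), the 2 genes that were not at their highest in female control 24 h replicate 3. Without that library the median was 0.46, and 37 of the 38 were positive. With it, limma voom gave a median of 0.03 (23 positive) and the fit with a replicate block 0.06 (27 positive). Ndufb10 shows it: the male controls held 350, 355, 256 and 464 CPM and the male furosemide libraries 539, 367, 579 and 625 CPM, the female controls 221, 398, 2641 and 273 CPM and the female furosemide libraries 449, 488, 531 and 478 CPM. All 8 furosemide libraries lay above the control median, yet the fold change was −0.15 (SE 0.264) with all libraries and 0.69 (SE 0.184) without the 3.

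By edgeR's quasi-likelihood test, 0 of the 38 were called at 24 h with all libraries (smallest adjusted p = 0.594), with 0 higher and 5 lower at an unadjusted p under 0.05. Of all genes, 0.00964% were called, 2.78% were higher at an unadjusted p under 0.05 and 46% had a positive fold change, and the 885 genes of high level had a median of −0.11 with 34.9% positive. DESeq2 and voom called 0, and voom with quality weights called 2 higher, where it called 12 of all 41507 genes higher. Without the 3 libraries 0 were called, against 0.00482% of all genes called higher, and 37 of the 38 were positive, against 50.6% of all genes. In that fit 30 of the 38 were higher at an unadjusted p under 0.05, and the share of all genes at that threshold is not given here. The smallest p in the negative direction belonged to Ndufa2, an accessory matrix subunit (−0.66, SE 0.283, and 0.37 without the 3), Ndufa4l2 (−1.26, SE 0.574, and −0.48) and Ndufb5 (−0.66, SE 0.301, and 0.46). Beside Ndufs1, core genes lay between −0.57 for Ndufs3 (SE 0.295) and −0.31 for Ndufs8 (SE 0.252), with −0.49 for Ndufs7 (SE 0.270) and −0.54 for Ndufv1 (SE 0.281) and Ndufv2 (SE 0.283). Without the 3 libraries they lay between 0.30 for Ndufv1 and 0.51 for Ndufs3. Ndufa4 went from −0.55 (SE 0.274) to 0.30 (SE 0.191). The largest value without the 3 libraries was that of Ndufa11, an accessory subunit of the proximal membrane arm, at 0.73 (SE 0.184, adjusted p = 0.121). Intercalated cell markers (5 of 5 positive, median 1.38, highest sum 33.4 CPM in controls and 90.9 CPM with furosemide) and erythroid markers (5 of 5 positive, median 2.80, highest sums 8.09 and 467 CPM) stood higher beside these values, and their part was not tested.

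**Figure D4:**
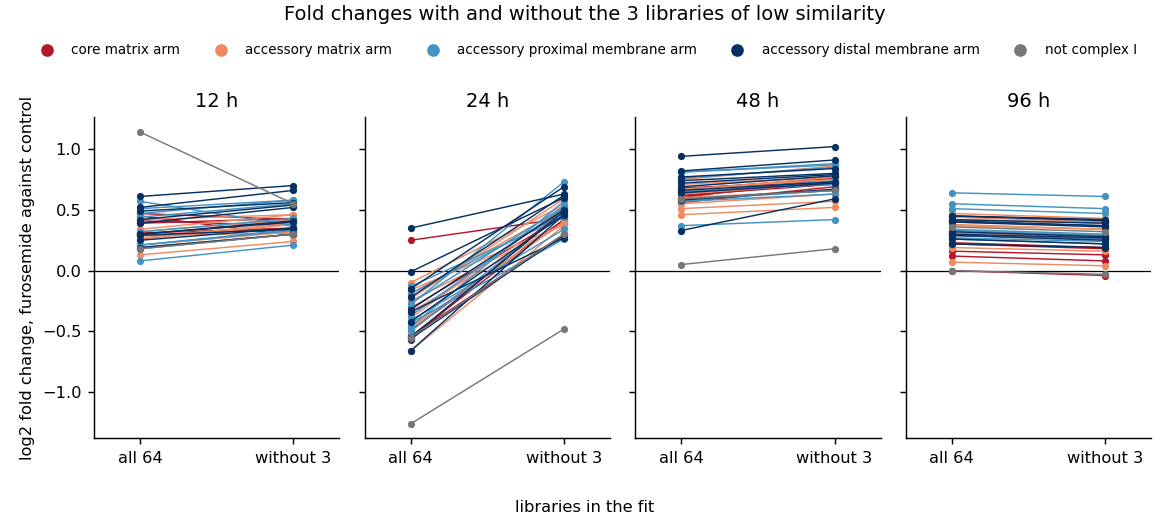
Log2 fold change of 37 of the 38 genes, furosemide against control in both sexes, from all 64 libraries (left of each panel) and without the 3 libraries of low similarity (right), with 1 line per gene. The lines cross 0 at 24 h, where the median of all 38 goes from −0.38 to 0.46, and keep their side at 12 h and 48 h.

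After 96 h of furosemide the differences were small for the core and somewhat larger for the accessory subunits. The median over the 38 genes was 0.32, with 36 positive, and 0 were called by edgeR's quasi-likelihood test (smallest adjusted p = 0.903), nor by DESeq2 or voom. Voom with quality weights called 19 higher, where it called 1035 of all 41507 genes higher. The 2 genes higher at an unadjusted p under 0.05 compare with 2.24% of all genes. Of all genes 0.0819% were called and 50.6% were positive. The 885 genes of high level had 77.5% positive, 9.04% higher at that threshold and a median of 0.17. Without the 3 libraries, which include none of 96 h, 0.202% of all genes and 0 complex I genes were called higher. Ndufa3, a small proximal subunit, had the smallest p: it lay at 385, 611 and 858 CPM in controls and at 604, 955 and 1291 CPM with furosemide (0.64, SE 0.247). In 7 of 8 furosemide libraries it lay above the control median, with overlap between 604 and 858 CPM. Ndufc1 (0.51, SE 0.251) and Ndufb4 (0.45, SE 0.234) followed.

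The medians at 96 h were 0.16 for the 7 core genes and 0.38, 0.34 and 0.36 for the accessory matrix, proximal and distal groups, a contrast that was not tested. Ndufs1 lay at 178, 248 and 366 CPM in controls and at 158, 204 and 436 CPM with furosemide (−0.00, SE 0.206), with 3 of 8 furosemide libraries above the control median. Other core values were 0.12 for Ndufv1 (SE 0.280), 0.16 for Ndufs3 (SE 0.294), 0.22 for Ndufv2 (SE 0.282), 0.23 for Ndufs8 (SE 0.252) and 0.29 for Ndufs7 (SE 0.270). Ndufa4 stood at 0.36 (SE 0.274) and Ndufa4l2 at −0.00 (SE 0.541). Lars2 moved with the diet here, at 3727, 10035 and 16363 CPM of all counts in controls and 3920, 19489 and 29626 CPM with furosemide. Without the 5 of 8 furosemide libraries above every control in Lars2, the median was 0.36 and all 38 genes were positive. In that smaller fit 0 of the 38 were higher at an unadjusted p under 0.05, and the median of all genes was −0.25. With Lars2 as a covariate the median over the 38 genes was 0.55, and that of all genes was −0.09. All 5 intercalated cell markers were negative (median −1.35, sums up to 90.5 CPM in controls and 24.6 CPM with furosemide) and all 5 markers of the thick ascending limb positive (median 0.88, sums of 1664 to 6550 CPM against 1821 to 8749 CPM), and their part was not tested.

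Within a sex, with 4 libraries per diet, the male medians were 0.08, 0.36, 0.56 and 0.56 at 12, 24, 48 and 96 h, and the female medians were 0.50, −1.10, 0.73 and 0.09. Leaving out the 3 libraries, the male median at 12 h was 0.22 and the female medians were 0.55, 0.53, 0.85 and 0.04, so that the female value at 24 h changed sign, with 37 of the 38 positive. In males edgeR's quasi-likelihood test called 0 complex I genes at each time, where 0.00241%, 0%, 0% and 0.012% of all genes were called, with 0, 0, 2 and 2 higher at an unadjusted p under 0.05. Of the 885 genes of high level, 7.8%, 3.16%, 6.33% and 9.15% were higher at that threshold. DESeq2 and voom also called 0 in males. Voom with quality weights called 0, 0, 0 and 23, and its share of all genes in males is not given here. Over both sexes at 96 h that method called 1035 of all 41507 genes higher, beside 19 of the 38. In females edgeR called 0, 1, 0 and 0 of the 38, where 0%, 0.272%, 0% and 0.00723% of all genes were called. The 1 was Ndufa4l2, which is no complex I gene, at 24 h: it fell by 3.65 on the log2 scale (SE 0.884, adjusted p = 0.0494). That call rested on female control 24 h replicate 3: the female controls held 0.860, 2.57, 10.7 and 0.547 CPM and the furosemide libraries 0.114, 0.198, 0.395 and 0.444 CPM, and without that library 0 of the 38 were called. The count was unstable in other ways too: DESeq2 called 16, and leaving out replicate 1, 2 or 4 of the female controls gave 28, 16 and 23. The shares of all genes called in those fits are not given here. At 48 h in females 17 of the 38 were higher at an unadjusted p under 0.05, against 14.6% of the 885 genes of high level, and the smallest p was that of Ndufb3 (1.27, SE 0.321, adjusted p = 0.340). DESeq2, voom with quality weights and the fit without the 3 libraries each called 1 gene higher there.

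The test of the difference between the sexes called 0 complex I genes at each time, where 0%, 0%, 0% and 0% of all genes were called. The medians of female minus male fold changes were 0.43, −1.46, 0.13 and −0.48 at 12, 24, 48 and 96 h. At 24 h 34 of the 38 had an unadjusted p under 0.05, all lower in females, and DESeq2 called 7, its share of all genes not being given here. The 885 genes of high level also leaned lower in females, with a median of −0.83 and 18% positive. These values include female control 24 h replicate 3. When it and the other 2 libraries of low similarity were left out, the 24 h median was 0.11, with 29 positive and 1 gene at an unadjusted p under 0.05. The difference between times called 0 as well: the 48 h fold changes exceeded those of 12, 24 and 96 h by medians of 0.33, 0.98 and 0.29, where 0.00241%, 0% and 0% of all genes were called, with 0, 35 and 2 of the 38 higher at an unadjusted p under 0.05. Of the 885 genes of high level, 0.452%, 32.9% and 4.86% were higher at that threshold. In the fit without the 3 libraries the medians over the 38 genes were 0.33, 0.27 and 0.42, with 0, 0 and 14 of them higher at that threshold. Voom with quality weights called 3 for 48 h against 96 h. Complex I genes reached their largest median difference at 48 h without a called difference from the other times.

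Control libraries differed by time as well. Comparing 96 h with 12 h within the controls, the median over the 38 genes was 0.39, with 32 positive and 11 higher at an unadjusted p under 0.05, a threshold that 28.6% of the 885 genes of high level passed in that direction. Ndufs5, a proximal subunit with a CHCH fold, was the 1 gene called (0.86, SE 0.277, adjusted p = 0.0452 by edgeR), where 6.58% of all genes were called. It lay at 349, 272, 275 and 353 CPM in males and 270, 198, 239 and 208 CPM in females at 12 h, and at 525, 398, 368 and 545 CPM in males and 588, 518, 469 and 481 CPM in females at 96 h, so the 2 times did not overlap. Without the 3 libraries 13 of the 38 were called higher, where 8.33% of all genes were called higher. Among the 13 were the core genes Ndufv2 (0.91, SE 0.185), Ndufv1 (0.86, SE 0.188), Ndufs3 (0.68, SE 0.178) and Ndufs1 (0.65, SE 0.203). Over all libraries, 6 of the 7 mitochondrially encoded subunits were called in the opposite direction (median −1.31, lowest mt-Nd3 at −2.04). The 96 h libraries were also deeper and lower in Lars2 and in the mitochondrial share, so time and library structure cannot be told apart here. Between the sexes within controls, the median of female against male was 0.21 with all libraries and −0.17 without the 3. In either fit 0 were called (1.24% of all genes were called with all libraries). With all libraries the 885 genes of high level had a median of 0.20, with 83.2% positive. Without female control 24 h replicate 3 alone, Ndufb4 had the smallest p (−0.43, SE 0.129, adjusted p = 0.0925 by edgeR). Voom with quality weights called 2, both lower in females.

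The genes around complex I were read from lists of its other parts. The 7 mitochondrially encoded subunits (mt-Nd1 to mt-Nd6 with mt-Nd4l), which form the core of the membrane arm, had medians of −0.03, 0.45, 0.24 and 0.35 at 12, 24, 48 and 96 h with furosemide, and 0 of 7 were called at any time with all libraries or without the 3. At 48 h they were positive in 7 of 7, at 0.13 to 0.27, which is below the nuclear median of 0.64, a difference that was not tested. Of 17 assembly factors, which build the enzyme without being part of it, 16 were tested: their medians were 0.29, −0.05, 0.42 and 0.10, and 5 were called higher at 48 h without the 3 libraries. Ndufaf2, an assembly factor that binds a late intermediate of the matrix arm, was the highest, at 0.83 (SE 0.201, adjusted p = 0.242) with all libraries.

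The 13 regulators of mitochondrial biogenesis had medians of 0.13, −0.12, 0.27 and 0.02, with 0 called with all libraries and 1 called higher at 48 h without the 3. At 48 h the nuclear receptor gene Esrra, which drives many respiratory chain genes, stood at 0.52 (SE 0.274), and at 0.89, the highest of the list, without the 3. The coactivator genes differed in sign at 96 h, with Ppargc1a at −0.57 (SE 0.236) and Ppargc1b at 0.96 (SE 0.269), and neither was called. The 38 nuclear subunits of complexes II to V had medians of 0.29, −0.25, 0.63 and 0.40 with all libraries and 0.35, 0.45, 0.73 and 0.36 without the 3. In the latter fit 31 of 38 were called higher at 48 h, where 34 of 38 were for the genes examined here. No test compared the lists. The lists share all control libraries.

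Some members share sequence with other genes, which limits their values. The processed pseudogene Ndufb4c is identical to Ndufb4 over 390 aligned bases, and Ndufb4 held 33.6 to 48.3% (median 42.4%) of their summed level, a split set by the authors' read assignment. With the copies added to their genes, the fold change of Ndufb4 at 48 h was 0.68 (0.74 before). Gm4459 is 99.8% identical to Ndufab1 over 468 bases. Ndufab1 held 83.1 to 100% of that sum, Gm4459 was at 0 in 25 libraries, and adding it left Ndufab1 at 0.74 at 48 h (0.75 before). Gm4459 lay at 81.0 to 144 CPM in the controls of 96 h and at 0 to 1.6 CPM in those of 12 h. Its highest count, 10229, was in female control 24 h replicate 3. Its part in the comparison of these controls was not tested. In all, 8 of the 38 genes had a processed pseudogene at 95% identity or more over at least 100 bases. By the same limits, 8 matched the opposite strand of another gene's transcript. For Ndufc1 those matches lay on other chromosomes, so they are similar sequence and not antisense overlap. Each of the others matched a gene on its own chromosome, and reads of such overlaps cannot be separated without strand information. Among them was Ndufb6 with Smim27, which overlap over 257 bases, so the values of such pairs are uncertain.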

How the data were processed

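RNA of microdissected early DCT was extracted with the Direct-zol Microprep kit, made into cDNA with SMART-Seq HT and into libraries with Nextera XT, per the labels' protocols. These library kits mark neither strand nor molecule. What the authors deposited are estimated counts for each gene, made with Salmon 0.14.10 on GRCm38.p6, per the submitters' processing notes. For the annotation release, the trimming and the step from transcripts to genes, nothing is given in the sources used here. Of the values 55% were whole, and all were rounded to whole counts. Reads that fit several near-identical genes are divided by Salmon's model, which makes values of genes with close copies uncertain. Symbols and positions of 54097 of 54331 genes were matched in GENCODE release M21 of GRCm38. No column was left unused.

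Libraries held 12.71 to 41.07 M counts (median 20.45, M standing for 1000000), and depth limits the precision of Ndufa4l2 most. All 64 libraries entered 1 edgeR quasi-likelihood fit (edgeR 4.0.16, R 4.3.3) with TMM scaling, filterByExpr at a minimum count of 10 (41507 genes) and 1 mean per group. Contrasts compared the diets at each time, over both sexes and within each, the sexes, the times, and the controls. Benjamini-Hochberg adjustment ran over all genes tested, and calls needed an adjusted p below 0.05. The SE is the fold change divided by the root of its F statistic. CPM use TMM scaling unless stated, and log2 CPM a prior count of 2. Levels per length use the longest, and as a check the shortest, principal coding transcript of GENCODE M21. Replicates differed beyond sampling noise in every pair (smallest mean chi-square per gene 14.6). The procedure was tested on simulated data. Similarity was computed over 11131 genes of at least 3 log2 CPM.

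Full statistics were given to the 7 core subunits, to called members (the 8 with the smallest p if more), to the 3 with the smallest p in each direction, and to Ndufa4 and Ndufa4l2. The single values of 1 member are not reported here, and counts and medians include it. The members, lists and tests were chosen with earlier results of these data known. Alternatives were other scalings, no filter, DESeq2 1.42.0, voom with and without quality weights (limma 3.58.1), subsets of libraries, Lars2 as a covariate, a replicate block and single libraries left out.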

Additional observations from a re-analysis of the deposited data

Results flagged for a closer look

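Single libraries stood apart from the other 3 of their group in 7 of the 96 groups of values examined, where chance alone marks about 1 in 20. The complex I level of male furosemide 24 h replicate 2 was 8.07 against 8.67 to 8.72 in the others, and Ndufb3 in the same library was 123 CPM against 189 to 202. In female control 24 h replicate 3, Ndufb10 was 2641 CPM against 221 to 398 and Ndufb9 was 7107 CPM against 641 to 1032. Ndufs1 was 256 CPM against 162 to 176 in female furosemide 24 h replicate 3 and 436 CPM against 158 to 202 in female furosemide 96 h replicate 1. Ndufa4l2 was 0.572 CPM against 1.66 to 1.87 in female control 48 h replicate 3.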

How the results depend on the processing

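Counts are of the 38 genes called. For most alternative fits within a sex, between sexes or times and within controls, the share of all genes called is not given here. Those counts stand without a background. Fits that leave out a single library kept the spread trend of all libraries unless stated, and the cause of each change was not tested. For both sexes, voom with quality weights called 2 at 24 h, 36 at 48 h and 19 at 96 h, DESeq2 called 1 at 48 h, and the fit without the 3 libraries of low similarity 34 at 48 h. Leaving out only female control 24 h replicate 3 with the spread estimated anew, an alternative chosen after seeing the data like the addition of pseudogene counts, called 12 at 48 h. In all other alternatives these counts stayed at 0. Within a sex, weights called 23 in males at 96 h. In females at 24 h (1 called) size factor scaling gave 3, DESeq2 16 and leaving out single libraries 0 to 28 (28, 16 and 23 without female control 24 h replicates 1, 2 and 4), and library totals, TMM without mitochondrial genes and Lars2, no filter, voom, weights, the libraries of 24 h alone, Lars2 as a covariate, the fit without the 3 and the replicate block gave 0. In females at 48 h DESeq2, weights and the fit without the 3 gave 1. The sex difference at 24 h gave 7 by DESeq2 and 0 to 25 without single libraries (25 and 12 without female control 24 h replicates 1 and 4). Weights gave 3 for 48 h against 96 h and 2 for sex in controls. For 96 h against 12 h in controls (1 called) size factors, no filter and Lars2 as a covariate gave 0, library totals 19, TMM without mitochondrial genes and Lars2 3, DESeq2 6, voom 8, weights 23, the fit without the 3 13, and single libraries left out 0 to 2.

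The 24 h median (−0.38) reversed to 0.03 with voom, 0.44 with weights, 0.46 without the 3 or without female control 24 h replicate 3 alone, and 0.06 with the replicate block; leaving out single libraries gave −0.53 to 0.46. The 96 h median moved to 0.16 with library totals and 0.55 with Lars2 as a covariate. Leaving out single libraries gave medians of 0.23 to 0.42 at 12 h, 0.53 to 0.81 at 48 h and 0.28 to 0.36 at 96 h. Library totals shifted the median of all genes to −0.12, −0.15, −0.40 and −0.15 at 12, 24, 48 and 96 h, with members at 0.16, −0.16, 0.41 and 0.16. Replicate numbers did not pair the libraries, since 1 of 32 pairs of same-numbered libraries correlated over 0.1. The replicate block called 0 of the 38 at each time, with medians of 0.28, 0.06, 0.69 and 0.33.

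Leaving out single libraries gave 24 h values from −0.81 (Ndufa2), −0.70 (Ndufa4), −0.82 (Ndufb5), −0.73 (Ndufs3), −0.65 (Ndufs7), −0.45 (Ndufs8), −0.69 (Ndufv1) and −0.69 (Ndufv2) up to those without female control 24 h replicate 3. At 24 h single genes reversed under weights, without the 3, or without female control 24 h replicate 3: Ndufa2 to 0.33 and 0.37, Ndufa4 to 0.30, Ndufb5 to 0.44 and 0.46, Ndufs3 to 0.54 and 0.51, Ndufs7 to 0.38 and 0.42, Ndufs8 to 0.43 and 0.45, Ndufv1 to 0.28 and 0.30, and Ndufv2 to 0.44 and 0.42. The replicate block gave 0.01 for Ndufb5 and Ndufs7, 0.10 for Ndufs3, 0.08 for Ndufs8 and 0.03 for Ndufv2, and voom 0.03 for Ndufs3 and 0.05 for Ndufs8. Ndufa4l2 at 48 h became −0.03 with size factors and DESeq2, −0.18 with library totals, and −0.28, −0.17, −0.13, −0.08 and −0.05 without 1 of 5 libraries (−0.28 to 0.51 over all). At 96 h library totals gave −0.05 for Ndufv1.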
